A study of Mus musculus with 8 samples.

Results

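Glutathione transferases (GSTs) and UDP-glucuronosyltransferases (UGTs) were examined in the livers of Nnmt KO and control mice that ate a diet lacking methionine and choline (the MCD diet). Members were the genes of the count table named Gsta, Gstk, Gstm, Gsto, Gstp, Gsts, Gstt or Gstz with a number, or Ugt1, Ugt2 or Ugt3, with a mean of at least 0.5 CPM (counts scaled to a common library total) over the 8 libraries. In total, 41 symbols carried these names, and 37 of the 33212 genes in the table were members: 19 GSTs and 18 UGTs. The other 4 genes were Gsto2 and Ugt1a8, at 0.320 and 0.292 CPM, Ugt2a1, with 4 counts in 1 library, and Gstt4, with 0 counts. Every one of the 37 members also passed the filter on low counts used for testing.

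The Nnmt KO group was 4 mice in which Cre under the albumin promoter removed floxed Nnmt in hepatocytes (Alb-Cre::Nnmt flox/flox, labelled Nnmt LKO). The control group was 4 mice labelled WT, headed Control in the count table and described by the study as Nnmt flox/flox mice. All were male C57BL/6 mice, and both groups had received the MCD diet for 8 weeks, so no comparison with a normal diet can be made. Ages at sampling were not given in the sources used here. The table headers name only the genotype, so each group's libraries are called a to d, and a letter links no control library to an Nnmt KO library.

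Both families belong to the second phase of detoxification, in which a reactive or fat-soluble compound is joined to a water-soluble group and exported. GSTs join the thiol of glutathione to electrophiles such as lipid peroxidation products, and several also reduce peroxides or isomerise metabolites. UGTs of the Ugt1 and Ugt2 subfamilies lie in the membrane of the endoplasmic reticulum and transfer glucuronic acid from UDP-glucuronate to bilirubin, steroids, bile acids and drugs. Hepatocytes are a main site of both reactions.

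Several members share sequence, which limits how far reads can be given to 1 of them. The 8 Ugt1a members lie in a nested locus on chromosome 1 (GRCm38, between 88055388 and 88220002, plus strand). Each has its own first exon joined to common later exons, so between 50.3% and 60.6% of the exon bases of a member overlapped another member. The first 60 bases of exon 2 of Ugt1a1, at chr1:88215044-88215103 (GRCm38, plus strand), occurred unchanged in transcripts of 8 of the 8 members, and are shown because a read from them fits all of these genes.
Ugt1a shared exon: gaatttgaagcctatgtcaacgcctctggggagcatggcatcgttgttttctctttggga

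In contrast, 59 of the first 90 coding bases differed between Ugt1a1 and Ugt1a2, compared position by position without alignment. The coding lengths of these genes differ, so a shift in position counts as differing bases and the true difference may be smaller. Ugt1a6a and Ugt1a6b were alike also in the first exon, with 26 differing bases of 1596 coding bases. Coding bases 271 to 360 are shown for both, as the 90-base stretch with the most differences, with the 13 differing bases in capitals.
Ugt1a6a: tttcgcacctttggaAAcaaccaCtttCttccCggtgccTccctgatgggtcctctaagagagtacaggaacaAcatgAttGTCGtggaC
Ugt1a6b: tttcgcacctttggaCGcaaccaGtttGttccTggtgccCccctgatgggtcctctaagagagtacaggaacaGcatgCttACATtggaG

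Among the GSTs, Gstp1 and Gstp2 are near copies of each other, with 12 differing bases of 633 coding bases. Coding bases 1 to 90 are shown with the 6 differing bases in capitals.
Gstp1: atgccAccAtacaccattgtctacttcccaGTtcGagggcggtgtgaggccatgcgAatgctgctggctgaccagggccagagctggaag
Gstp2: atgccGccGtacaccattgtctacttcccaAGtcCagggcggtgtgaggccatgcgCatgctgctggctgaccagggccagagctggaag

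On chromosome 9, Gsta1 shared 68.4% of its 150-base words with other genes, most of them with the gene model Gm3776, and Gsta2 shared 19.6%. The corresponding shares were 17.6% for Gstp1, 35.7% for Gstp2, 19.5% for Ugt2b5, 19.2% for Ugt2b38, 9.56% for Gstt3 and 3.44% for Gstm3. No 150-base word of the other 21 members outside the Ugt1a locus occurred in a second gene. Values of Ugt1a, Gsta1, Gsta2, the Gstp pair, Ugt2b5 and Ugt2b38 are therefore uncertain as values of single genes. The same holds to a smaller extent for Gstt3 and Gstm3. How the counting treated shared reads is not given in the sources used here.

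Total counts per library lay between 75020072 and 87934362. Nnmt itself was at 31.8, 44.8, 68.9 and 83.0 CPM in the Nnmt KO libraries and at 112, 224, 134 and 84.9 CPM in the control libraries. All 4 Nnmt KO values were below all 4 control values, although the highest Nnmt KO and the lowest control library differed by less than 2 CPM. The Nnmt KO mean was 41.2% of the control mean (57.1 ± 23.1 against 139 ± 60.5 CPM, SD, n = 4 each). The log2 fold change was -1.28 (SE 0.331), with an adjusted p of 0.123 in edgeR and an exact two-sided permutation p of 0.0286, the smallest that 4 against 4 libraries can give. The defining hepatocyte genes of the labelled tissue were present, with mean Alb levels of 72972 CPM in controls against 75662 CPM in Nnmt KO livers. Nnmt KO a stood apart in its scaling factor, at 1.21 against 0.876 to 1.06 in the other 7 libraries. For members, values without this library are given where leaving it out changed a call. For the other gene lists such changes are given only in part.

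No GST or UGT passed the test between Nnmt KO and control livers. By quasi-likelihood testing in edgeR, with p-values adjusted over 15291 genes, 0 of 37 members reached an adjusted p of 0.05, where 49 genes (0.32%) did in all. None reached an unadjusted p of 0.05 either, where 1925 genes (12.6%) did, with 834 (5.45%) higher and 1091 (7.13%) lower in Nnmt KO livers. The 4 values of one genotype overlapped those of the other in all 37 members, while 1247 genes (8.16%) had groups that did not overlap, 511 (3.34%) higher and 736 (4.81%) lower in Nnmt KO livers. With DESeq2 as the other tool, 0 members reached an adjusted p of 0.05 and 2 reached an unadjusted p of 0.05 (Gstm3 and Gsta1), against 14.2% of all genes. Scaling by library size alone brought 3 members to an unadjusted p of 0.05 (Gstm1, Gstm3 and Ugt2a3, against 9.4% of all genes), and leaving out control a also 3 (Gsta4, Gstm3 and Ugt1a9, against 8.08%).

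The intervals show what size of difference remained possible. Among the GSTs, 9 log2 fold changes were above 0 and 10 below, with a median of -0.01, and among the UGTs 12 were above 0 and 6 below, with a median of 0.07. The median over all tested genes was 0.02. For 34 of the 37 members the 95% interval of the log2 fold change lay within 1 of 0, that is within a 2-fold difference, which held for 73.3% of all genes. The exceptions were Gstm3, Ugt1a2 and Ugt1a10. For 20 members it lay within a 1.5-fold difference, against 46.2% of all genes. A p that misses the threshold does not show that the genotypes are alike, and differences inside these intervals remain compatible with the data from 4 mice each.

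**Figure D1:**
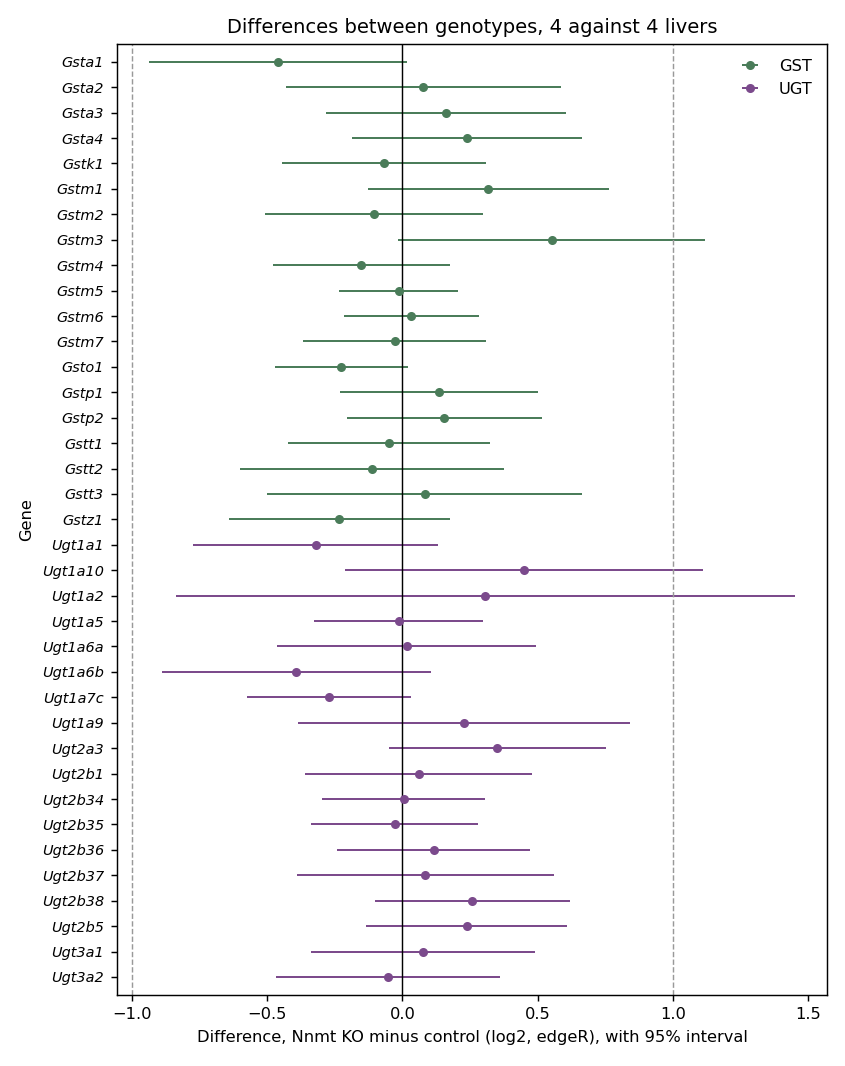
Log2 fold change of each GST and UGT between Nnmt KO and control livers (horizontal axis) for each of the 37 genes (vertical axis). Points are edgeR estimates from 4 against 4 libraries, bars are 95% intervals, and dashed lines mark -1 and 1. Every interval holds 0, and those of Gstm3, Ugt1a2 and Ugt1a10 pass 1.

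Summed over the 19 GSTs, control livers held 5753 ± 1090 CPM and Nnmt KO livers 6426 ± 1116 CPM (SD, n = 4 each), a ratio of 1.12. Summed over the 18 UGTs, the values were 2132 ± 265 and 2099 ± 352 CPM, a ratio of 0.98. Both pairs of ranges overlapped. Per length, GST messages were the larger pool in every library, from 2565 to 4589 CPM per kb against 636 to 960 CPM per kb for UGTs. In bulk liver, fewer cells of a type and less RNA per cell cannot be told apart.

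The cytosolic mu class, Gstm, was the most abundant GST subfamily per length, at 1930 ± 408 CPM per kb in controls. Its 7 genes lie together on chromosome 3 (GRCm38, 107895821 to 108044894) and encode conjugating enzymes for epoxides and other electrophiles. Gstm1 had the highest level per length of all members, at 1471 ± 302 CPM per kb of exon in control and 1833 ± 426 in Nnmt KO livers. It made up 45.6% ± 1.52 of the GST level per length in control and 49.3% ± 2.97 in Nnmt KO livers (SD, n = 4 each). Of the GST level in CPM, without regard to length, it made up 37.6% and 41.8% in the same order. In CPM, Gstm1 was at 2696, 2309, 2012 and 1649 in control a to d and at 2091, 2650, 3572 and 2487 in Nnmt KO a to d. Nnmt KO c was the highest of the 8 libraries and control d the lowest, and the groups overlapped. The log2 fold change was 0.32 (SE 0.203, 95% interval -0.13 to 0.76, adjusted p = 0.550 in edgeR). Without Nnmt KO a it was 0.42 (unadjusted p = 0.0457, adjusted p = 0.365).

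Gstm3 had the smallest p of the 37 members and is described for that reason, chosen after its values were seen. It was at 408, 207, 219 and 198 CPM in control a to d and at 362, 296, 537 and 316 CPM in Nnmt KO a to d. Control a lay among the Nnmt KO values, whereas the other 3 control libraries lay below all of them. Its log2 fold change was 0.55 (SE 0.259, 95% interval -0.02 to 1.12, unadjusted p = 0.0561, adjusted p = 0.409). Without control a it was 0.88 with an adjusted p of 0.264, so the value moved by over 1.5 times with 1 library and still did not pass.

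The other 5 Gstm genes had log2 fold changes between -0.15 (Gstm4) and 0.03 (Gstm6). Gstm5 was the steadiest member, between 19.2 and 22.5 CPM over the 8 libraries, and its interval of -0.23 to 0.21 was the narrowest of the family. Per length, Gstm2 followed Gstm3 in the subfamily at 121 CPM per kb, and Gstm5 was the lowest at 16.1. The summed Gstm level was 2867 ± 600 CPM in controls and 3498 ± 761 CPM in Nnmt KO livers, a ratio of 1.22, with overlapping ranges of 2220 to 3638 and 2863 to 4603 CPM.

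**Figure D2:**
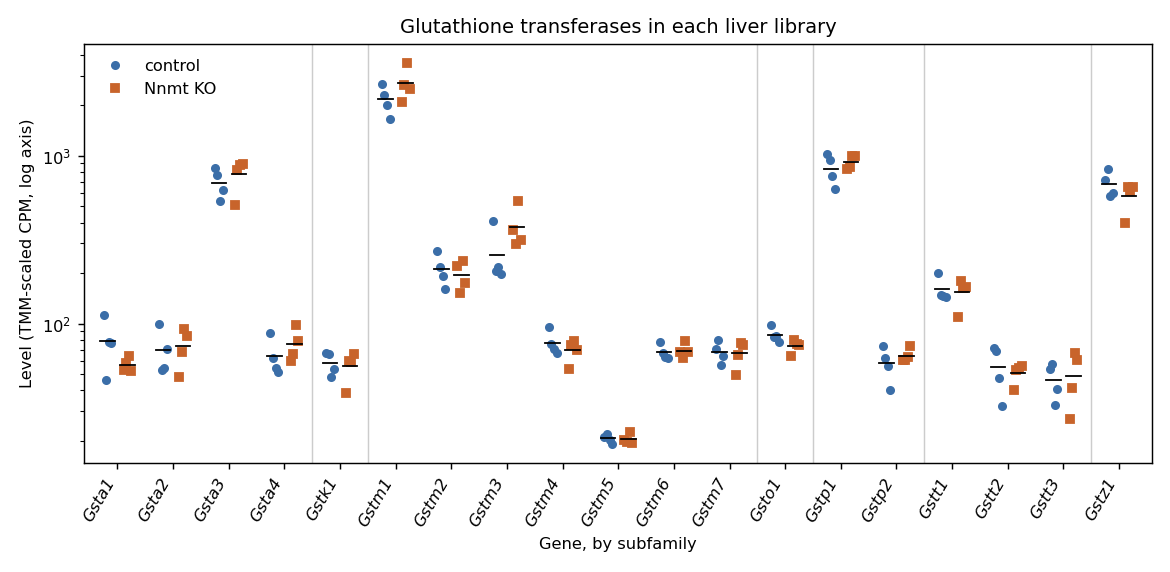
Level of each GST (vertical axis, TMM-scaled CPM on a log axis) in each library, by gene and subfamily (horizontal axis, grey lines between subfamilies). Circles are the 4 control and squares the 4 Nnmt KO libraries, and black bars are group means. The groups overlap in every gene, and Gstm1 lies between 1649 and 3572 CPM.

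The alpha class, Gsta, conjugates products of lipid peroxidation. Gsta3 had the highest level per length in the subfamily, at 159 ± 32.1 CPM per kb in control and 178 ± 41.0 in Nnmt KO livers. It was at 848, 764, 536 and 623 CPM in control a to d and at 512, 820, 880 and 888 CPM in Nnmt KO a to d. Nnmt KO a was the lowest of the 8 libraries, and the other 3 Nnmt KO libraries lay above 3 of the 4 controls. This gave a log2 fold change of 0.16 (SE 0.202, 95% interval -0.28 to 0.61, adjusted p = 0.780).

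Gsta1 had the most negative estimate of the 37 members. It was at 113, 45.8, 77.2 and 76.6 CPM in control a to d and at 52.9, 57.9, 64.4 and 52.0 CPM in Nnmt KO a to d. Control b was the lowest of all 8 libraries, and the other 3 control libraries were above every Nnmt KO library. Its estimate was -0.46 on the log2 scale (SE 0.217, 95% interval -0.94 to 0.02, unadjusted p = 0.0574, adjusted p = 0.410), and without control b it was -0.63 with an adjusted p of 0.165. Gsta1 was chosen after its values were seen, and it is also the GST with the most shared sequence. Summed with its neighbour Gsta2, the level was 147 ± 47.4 CPM in controls and 130 ± 23.1 CPM in Nnmt KO livers. Gsta4, whose enzyme prefers the lipid peroxidation product 4-hydroxynonenal, had a log2 fold change of 0.24 (95% interval -0.19 to 0.67), which became 0.45 without control a (unadjusted p = 0.0240, adjusted p = 0.533), and Gsta2 one of 0.08 (-0.43 to 0.59).

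The pi class followed Gstm1 in level per length. Gstp1, which is known to be higher in male than in female mouse liver, was at 542 ± 116 CPM per kb in control and 595 ± 57.0 in Nnmt KO livers. In CPM it was at 1024, 946, 757 and 630 in control a to d and at 838, 851, 996 and 999 in Nnmt KO a to d. The 4 Nnmt KO values lay inside the control range, and the log2 fold change was 0.13 (SE 0.167, 95% interval -0.23 to 0.50, adjusted p = 0.778). Gstp2, its near copy shown above, gave 0.15 (-0.21 to 0.51) at 54.9 CPM per kb over the 8 libraries.

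The remaining GSTs are theta, zeta, kappa and omega enzymes. Gstz1 isomerises maleylacetoacetate in tyrosine breakdown and was at 714, 834, 573 and 601 CPM in control a to d and at 396, 649, 620 and 651 CPM in Nnmt KO a to d. Nnmt KO a was the lowest library, below the other 3 of its group by over 200 CPM, and the log2 fold change was -0.23 (SE 0.186, 95% interval -0.64 to 0.18, adjusted p = 0.642). Gstt1, the main theta gene per length at 103 CPM per kb, was at 200, 149, 145 and 145 CPM in control a to d and at 109, 180, 164 and 164 CPM in Nnmt KO a to d. Here control a was the highest and Nnmt KO a the lowest library, and the log2 fold change was -0.05 (SE 0.170, 95% interval -0.42 to 0.32). Gstt2 and Gstt3 gave -0.11 (-0.60 to 0.38) and 0.08 (-0.50 to 0.67).

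Gsto1, an omega enzyme that reduces mixed disulphides and dehydroascorbate, was at 98.1, 83.1, 83.9 and 78.1 CPM in control a to d. In Nnmt KO a to d it was at 63.9, 79.4, 75.9 and 74.4 CPM. Only Nnmt KO b reached into the control range, and the log2 fold change was -0.23 (SE 0.112, 95% interval -0.47 to 0.02, unadjusted p = 0.0681, adjusted p = 0.430). Gstk1, the kappa enzyme of mitochondria and peroxisomes, was at 66.5, 66.1, 47.8 and 53.3 CPM in control a to d and at 38.3, 59.8, 58.9 and 65.7 CPM in Nnmt KO a to d. Its groups overlapped almost fully, with a log2 fold change of -0.07 (SE 0.172, 95% interval -0.45 to 0.31).

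Among the UGTs, Ugt1a1, the enzyme that conjugates bilirubin, had the highest level per length. It was at 256 ± 58.5 CPM per kb in control and 205 ± 44.8 in Nnmt KO livers, which was 30.0% ± 5.02 and 24.4% ± 3.16 of the UGT level per length (SD, n = 4 each). In CPM, Ugt1a1 was at 590, 696, 388 and 607 in control a to d and at 319, 521, 538 and 448 in Nnmt KO a to d. Nnmt KO a was the lowest library, and control c lay below the other 3 Nnmt KO libraries. The log2 fold change was -0.32 (SE 0.206, 95% interval -0.77 to 0.13, adjusted p = 0.555), and without control c it was -0.47 (unadjusted p = 0.0319, adjusted p = 0.314).

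Promoter windows of 250 bases before the gene start (RefSeq, GRCm38.p6) were found for 33 members, 17 GSTs and 16 UGTs, of 32851 windows in all. The core of the antioxidant response element bound by NRF2, TGACNNNGC, was searched on both strands and occurred in 10.2% of all windows. It was found in 3 members, all GSTs (Gsta3, Gstm5 and Gstm7). The xenobiotic response core of the aryl hydrocarbon receptor, GCGTG, was searched in the same way and occurred in 28.2% of all windows and in Gsta2, Gstm1, Gstm5, Gstp1 and Ugt1a5. In Gstm5 a match of each core overlapped the other, and no other such overlap was found in a member. A match of letters is a description and does not show binding. The window of Gsta3 is shown as that of the most abundant GST with an NRF2-type match, at chr1:21240335-21240584 on the plus strand, with the match in capitals.
Gsta3: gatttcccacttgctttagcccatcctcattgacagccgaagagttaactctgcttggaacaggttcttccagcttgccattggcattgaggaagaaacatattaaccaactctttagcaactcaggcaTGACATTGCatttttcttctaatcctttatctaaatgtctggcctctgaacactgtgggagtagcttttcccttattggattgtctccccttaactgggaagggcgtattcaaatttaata

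Within the Ugt1a locus, some single genes varied more between mice than the sum did. Ugt1a2 ranged most of all 37 members, at 189, 128, 99.1 and 15.0 CPM in control a to d and at 99.4, 112, 157 and 165 CPM in Nnmt KO a to d. Control d alone was low, with 1.68% of the locus total in that liver against 10.7% to 17.7% in the other 7, while Ugt1a1 made up 67.7% there. Between genotypes it gave 0.31 on the log2 scale (SE 0.521, 95% interval -0.84 to 1.45), and it was -0.058 without control d, so 1 library set its sign.

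Ugt1a6b, 1 of the pair shown above, was at 63.2, 65.7, 115 and 62.0 CPM in control a to d and at 42.5, 66.5, 73.2 and 50.6 CPM in Nnmt KO a to d. Control c alone was high. Ugt1a6a was at 86.0 CPM in control c, within the 81.1 to 159 CPM of that group, and the sum of the pair was 188 ± 34.4 CPM in controls and 171 ± 35.5 CPM in Nnmt KO livers. These enzymes conjugate small phenols. Their log2 fold changes were -0.39 (SE 0.226, 95% interval -0.89 to 0.10) for Ugt1a6b and 0.02 (-0.46 to 0.49) for Ugt1a6a.

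Ugt1a9 was at 109, 54.2, 40.4 and 47.0 CPM in control a to d and at 57.8, 80.4, 65.5 and 89.9 CPM in Nnmt KO a to d. Control a was the highest library and the other 3 control libraries were below every Nnmt KO library. The log2 fold change was 0.23 (SE 0.279, 95% interval -0.39 to 0.84), and 0.66 without control a (unadjusted p = 0.00344, adjusted p = 0.289). Ugt1a7c was nearly constant in controls, between 19.8 and 20.8 CPM, and was at 20.6, 13.5, 18.3 and 14.5 CPM in Nnmt KO a to d. Only Nnmt KO a lay in the control range, and the log2 fold change was -0.27 (SE 0.139, 95% interval -0.58 to 0.03, adjusted p = 0.445). Ugt1a10, the lowest of the 37 members at 0.681 CPM per kb, gave 0.45 (-0.21 to 1.11), and Ugt1a5 gave -0.01 (-0.32 to 0.30). Ugt1a2, Ugt1a6b, Ugt1a7c, Ugt1a9 and Ugt1a10 were chosen for description after their values were seen.

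Summed over the 8 genes, the locus held 1012 ± 193 CPM in controls against 914 ± 167 CPM in Nnmt KO livers, a ratio of 0.90 with overlapping ranges. The highest sum over the lowest was far smaller than for Ugt1a2, where the highest library was 12.6 times the lowest.

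**Figure D3:**
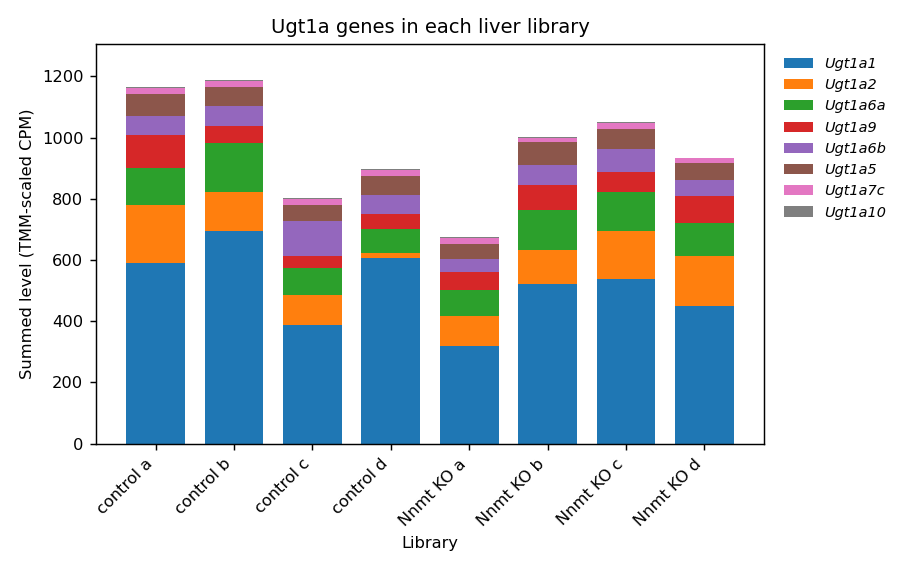
Level of the 8 Ugt1a genes (vertical axis, TMM-scaled CPM, stacked) in each of the 8 libraries (horizontal axis). Each colour is 1 gene and the bar height is the locus sum, from 674 CPM in Nnmt KO a to 1187 CPM in control b. Ugt1a2 is nearly missing from control d, at 15.0 CPM.

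The Ugt2 subfamily, on chromosome 5 (GRCm38, 86889767 to 87424203), conjugates steroids, bile acids and fatty acid products. Of its 8 members, 7 had a log2 fold change above 0 and 1 below, with a median of 0.10, and none passed the test. Ugt2b5 was the highest per length, at 115 ± 11.7 CPM per kb in control and 136 ± 33.4 in Nnmt KO livers. It was at 227, 234, 212 and 185 CPM in control a to d and at 210, 199, 267 and 335 CPM in Nnmt KO a to d. Nnmt KO d was the highest and control d the lowest, and the log2 fold change was 0.24 (SE 0.168, 95% interval -0.13 to 0.61, adjusted p = 0.598). Nnmt KO d was the highest of the 8 libraries also for Ugt2a3, Ugt2b1, Ugt2b34, Ugt2b36, Ugt2b37 and Ugt2b38.

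Ugt2a3 came nearest to a call in any setting. It was at 37.2, 38.9, 33.4 and 37.5 CPM in control a to d and at 29.3, 45.8, 53.1 and 59.5 CPM in Nnmt KO a to d. Nnmt KO b, c and d were above all controls, while Nnmt KO a was the lowest of all. Its log2 fold change was 0.35 (SE 0.182, 95% interval -0.05 to 0.75, unadjusted p = 0.0796, adjusted p = 0.452). Without Nnmt KO a it was 0.52 (SE 0.117), with an adjusted p of 0.0712. The gene was chosen after its values were seen.

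Ugt2b38, a near copy of Ugt2b5 with 47 differing bases of 1593 coding bases, gave 0.26 (95% interval -0.10 to 0.62), and their sum was 232 ± 23.6 CPM in controls and 274 ± 66.8 CPM in Nnmt KO livers. The other 5 genes lay between -0.03 (Ugt2b35) and 0.12 (Ugt2b36), and their intervals lay between -0.39 and 0.56. Per length the order after Ugt2b5 was Ugt2b36 at 77.6, Ugt2b34 at 64.6 and Ugt2b1 at 48.9 CPM per kb, down to Ugt2b37 at 2.51.

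The Ugt3 enzymes, on chromosome 15, use UDP-sugars other than UDP-glucuronate. Ugt3a2 was at 190, 177, 127 and 158 CPM in control a to d and at 102, 180, 174 and 172 CPM in Nnmt KO a to d. Apart from Nnmt KO a, the Nnmt KO values lay inside the control range, and the log2 fold change was -0.05 (SE 0.188, 95% interval -0.47 to 0.36). Ugt3a1 was lower per length, at 10.1 against 51.6 CPM per kb, and gave 0.08 (-0.34 to 0.49).

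**Figure D4:**
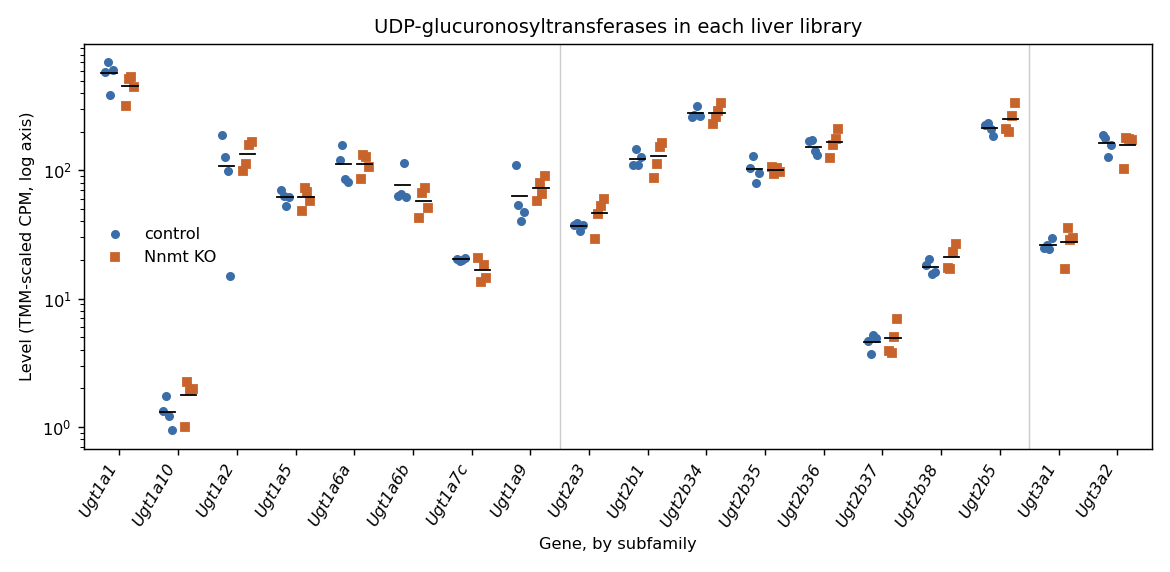
Level of each UGT (vertical axis, TMM-scaled CPM on a log axis) in each library, by gene and subfamily (horizontal axis, grey lines between subfamilies). Circles are the 4 control and squares the 4 Nnmt KO libraries, and black bars are group means. The groups overlap in every gene, and the low circle of Ugt1a2 is control d at 15.0 CPM.

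Nnmt KO a was the lowest of the 8 libraries for 18 of the 37 members (48.6%), 9 GSTs and 9 UGTs, and for 20.2% of all tested genes. Its median distance from the member means was -0.34 on the log2 scale, against 0.0070 over all tested genes. When levels were scaled by library size alone, that median was -0.07 and Nnmt KO a was the lowest for 8 members. Control d was the lowest for 11 members with TMM scaling and for 9 with library size alone, and control b for 2 and 8. Without Nnmt KO a, 4 members reached an unadjusted p of 0.05, against 13.3% of all genes. These were Gstm1, Ugt2a3, Ugt1a10 at 0.65 (adjusted p = 0.310) and Ugt1a7c at -0.39 (adjusted p = 0.213). The summed GST level of the Nnmt KO group was then 6865 ± 843 CPM and the UGT level 2265 ± 141 CPM (SD, n = 3).

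**Figure D5:**
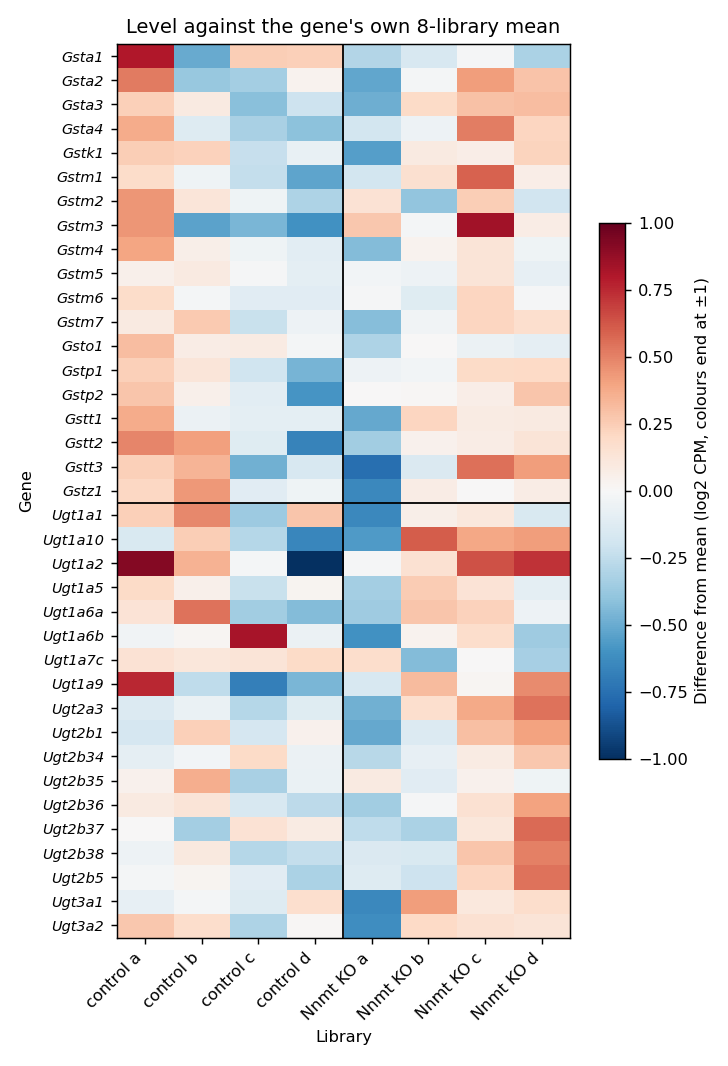
Difference of each member (vertical axis, GSTs above the line and UGTs below) from its own mean over the 8 libraries (horizontal axis), in log2 CPM. Red is above and blue below the mean, with colours ending at -1 and 1. The column of Nnmt KO a is mostly blue, with a median of -0.34.

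The genes that supply and use glutathione were examined beside the GSTs. Of 16 partners, 0 passed the adjusted test in edgeR and 1 reached an unadjusted p of 0.05, against 12.6% of all genes. It was Chac1, which breaks glutathione down. Chac1 was at 3.34, 3.70, 5.05 and 3.08 CPM in control a to d and at 2.21, 0.743, 1.18 and 0.363 CPM in Nnmt KO a to d. All Nnmt KO values were below all control values, with a log2 fold change of -1.74 (SE 0.438, adjusted p = 0.116). DESeq2, which called 1 gene of this list, gave an adjusted p of 0.00443, and edgeR one of 0.0195 without Nnmt KO a. With that library left out, 3 of the 16 partners reached an unadjusted p of 0.05, against 13.3% of all genes. Gclc, the catalytic subunit of the enzyme that limits glutathione synthesis, gave -0.35 (adjusted p = 0.446), its partner subunit Gclm 0.09, and the membrane-bound transferase Mgst1 0.02.

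Among 9 genes listed as glucuronate partners, not all of them genes of its supply, 0 passed the adjusted test in edgeR. At an unadjusted p of 0.05 there were 3, and in all 3 the groups did not overlap. Over all tested genes, 12.6% reached that p and 8.16% had groups that did not overlap. Slc35d1, which carries UDP-glucuronate into the endoplasmic reticulum, was at 190, 172, 143 and 139 CPM in control a to d. In Nnmt KO a to d it was at 98.6, 111, 120 and 117 CPM, below every control. The log2 fold change was -0.53 (SE 0.129, adjusted p = 0.108 in edgeR and 0.0100 in DESeq2). The related nucleotide sugar transporter Slc35d2 gave -0.35 (SE 0.0952, adjusted p = 0.145 in edgeR and 0.0275 in DESeq2). DESeq2 thus called 2 of the 9 genes, and over all genes it also called more than edgeR. With library size alone the unadjusted p of Slc35d2 in edgeR was 0.0575.

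Ugdh, which makes UDP-glucuronate, was at 154, 164, 142 and 157 CPM in control a to d and at 208, 167, 179 and 181 CPM in Nnmt KO a to d. Every Nnmt KO value was above every control value, with a log2 fold change of 0.25 (SE 0.109, unadjusted p = 0.0402, adjusted p = 0.367). Without Nnmt KO a it was 0.19 (unadjusted p = 0.100). The median log2 fold change over the 9 genes was 0.02.

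Of 8 exporters of conjugates and related transporters, 0 passed the adjusted test and 1 reached an unadjusted p of 0.05, against 12.6% of all genes. It was Abcc4 at 0.52 (adjusted p = 0.250). Abcc2, which exports both kinds of conjugate into bile, gave 0.17 (adjusted p = 0.686). Of 14 regulators, Cux2, a repressor higher in female liver, passed the test with a log2 fold change of 2.30 (SE 0.385, adjusted p = 0.0456) from 1.23 ± 0.524 CPM in control. Keap1, which restrains NRF2, gave -0.25 (unadjusted p = 0.0422, adjusted p = 0.374), and -0.23 without Nnmt KO a (unadjusted p = 0.0793). The receptors Nr1i2 (PXR) and Nr1i3 (CAR) gave 0.15 and -0.24, and Nfe2l2 (NRF2) gave -0.01, none of them past the test.

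Target genes of the same factors outside both families were examined too, beside 12.6% of all genes at an unadjusted p of 0.05. Of 10 NRF2 targets, 0 passed the adjusted test and 1 reached an unadjusted p of 0.05, Nqo1 at 0.40 (adjusted p = 0.359), and at 0.38 without Nnmt KO a (unadjusted p = 0.0615). With that library left out, 3 of the 10 reached an unadjusted p of 0.05, against 13.3% of all genes. Of 12 targets of CAR, PXR and AHR, 0 passed and 2 reached an unadjusted p of 0.05, Nqo1 and Cyp1a1, the latter at -0.54 (adjusted p = 0.211) with groups that did not overlap. With Nnmt KO a left out, 4 of the 12 reached an unadjusted p of 0.05. DESeq2 called 0 genes of the exporters and of these lists at an adjusted p of 0.05.

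Several GSTs and UGTs are known to differ between the sexes and across the liver lobule, so genes that mark both were measured. Of 12 tested female-biased liver genes, 5 were higher in Nnmt KO livers at an adjusted p of 0.05 in edgeR (Cux2, Cyp3a16, Cyp3a41a, Cyp3a41b and Sult2a1), and the median log2 fold change was 1.24. At an unadjusted p of 0.05, 7 were higher and 0 lower, and 9 of the 12 reached it without Nnmt KO a. Over all tested genes, 0.32% passed the adjusted test, and 5.45% were higher and 7.13% lower at an unadjusted p of 0.05. Without Nnmt KO a, 13.3% of all genes reached that unadjusted p. Acot3 (1.14, adjusted p = 0.292 in edgeR) had groups that did not overlap. Cyp3a16 and Sult2a1 were put in this list with earlier results known. Without these genes, a comparison chosen after seeing the data, 3 of 10 were called and the median was 1.05. The 3 were Cux2, Cyp3a41a and Cyp3a41b. Sequence shared between Cyp3a41a and Cyp3a41b was not examined, so they may not be separate calls. Of 12 male-biased genes 1 was higher in Nnmt KO livers at an adjusted p of 0.05, Cyp4a12b at 1.24 (adjusted p = 0.0496), and the median was 0.08. At an unadjusted p of 0.05, 4 were higher and 1 lower. The groups did not overlap in Cyp4a12b, Selenbp2 (0.95, adjusted p = 0.0711) and Serpina12 (0.61, adjusted p = 0.183). With library size alone the adjusted p of Cyp4a12b was 0.0681 and Selenbp2 was called in its place (0.99, adjusted p = 0.0440). Without Nnmt KO a both genes were called, and DESeq2 called 3.

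Of 10 pericentral genes, 0 passed the adjusted test in edgeR and 3 reached an unadjusted p of 0.05 (Cyp2e1 at -0.67, Axin2 at -0.43 and Slc1a2 at 0.52), while DESeq2 called 1 (Slc1a2). Over all genes, 12.6% reached an unadjusted p of 0.05 in edgeR. Without Nnmt KO a, Cyp2c37 was called as higher in Nnmt KO livers (adjusted p = 0.0366). The summed level of the 10 genes was 7754 to 13180 CPM in Nnmt KO and 12862 to 20308 CPM in control livers, and most of it was Cyp2e1, at 12356 ± 3713 CPM in controls and 7763 ± 2205 CPM in Nnmt KO livers (SD, n = 4 each). The other 9 genes, summed after seeing the data, came to 3423 ± 240 CPM and 3435 ± 320 CPM in the same order. The 8 periportal genes had overlapping sums, and Pck1 reached an unadjusted p of 0.05 at 0.42.

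Markers of other cells were measured as well, beside 12.6% of all genes at an unadjusted p of 0.05 and 13.3% without Nnmt KO a. All 7 cholangiocyte genes had log2 fold changes above 0 (median 0.72), summing to 90.9 to 285 CPM in Nnmt KO and 52.1 to 171 CPM in control livers. The top of the Nnmt KO range was Nnmt KO a. Most of that sum was Spp1, at 243 CPM against 71.4 to 150 in Nnmt KO b to d and 34.8 to 138 in controls. None of the 7 genes passed the adjusted test in edgeR or DESeq2, and 1 (Epcam) reached an unadjusted p of 0.05 in each. Epcam did not reach it without Nnmt KO a (unadjusted p = 0.0808). All 7 stellate cell and fibroblast genes were above 0 as well (median 0.34), summing to 335 to 718 against 266 to 461 CPM. The top of the Nnmt KO range was again Nnmt KO a. Col1a1 was at 106 CPM there, against 21.4 to 39.4 in Nnmt KO b to d and 18.3 to 70.4 in controls. Col3a1 was at 231 CPM against 40.7 to 74.4 and 42.1 to 101 in the same order. Dcn was less uneven, at 281 CPM against 209 to 273 and 143 to 218. There were 0 adjusted calls by either tool and 2 genes (Lrat and Dcn) at an unadjusted p of 0.05. Neither reached it without Nnmt KO a (unadjusted p = 0.0999 and 0.0630). For 5 macrophage genes the sums were 468 to 952 against 436 to 1060 CPM, for 5 endothelial genes 152 to 175 against 123 to 237 CPM, and for 5 lymphocyte and neutrophil genes 11.5 to 28.2 against 10.2 to 23.8 CPM. With Nnmt KO a left out, 1 macrophage gene reached an unadjusted p of 0.05, against 0 with all libraries. None of these marker genes was at 0 in every library. The 7 hepatocyte genes summed to 59811 (Nnmt KO a) to 107364 CPM in Nnmt KO and 71147 to 107275 CPM in control livers. Fah, at -0.53, reached an unadjusted p of 0.05, but not without Nnmt KO a (unadjusted p = 0.0805). With that library left out, 2 other hepatocyte genes reached an unadjusted p of 0.05. The 5 red blood cell genes were all below 0 (median -0.17), 1 of them at an unadjusted p of 0.05 (Alas2, and 0.121 without Nnmt KO a), with sums of 589 to 765 against 618 to 1003 CPM. The part of cell make-up, zonation and sex-biased expression in the GST and UGT values was not tested.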

How the data were processed

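The authors deposited 1 table of counts per gene for 8 liver libraries, 4 per genotype. Per the labels, reads were processed with HISAT2 and StringTie on mm10. Versions, annotation, strand and the treatment of shared reads are not given in the sources used here. The labels name a NEBNext Ultra kit and the study's methods a KAPA kit with paired 150-base reads. Groups came from the genotype labels. Nothing says which column is which mouse.

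Counts were tested with edgeR 4.0.16 in R 4.3.3 (TMM scaling, filterByExpr with a minimum count of 10, quasi-likelihood test, Benjamini-Hochberg adjustment over 15291 genes, threshold 0.05). CPM values were TMM-scaled, except for the level limit of members, which used library size. Standard errors were the log2 fold change over the square root of F, and 95% intervals used the moderated degrees of freedom. The fit was tested on simulated data. Alternatives were DESeq2 1.42.0 and its size factors, library size alone, no filter, and leaving out each library. Levels per length used exon lengths of GENCODE M21 (GRCm38, the assembly of mm10), as did positions and 150-base words. The length of a gene joined all its annotated exons. Genes with long totals, such as Gstz1 (5.09 kb) and Gsta3 (4.34 kb), therefore get lower levels per length. In controls Gsta3 made up 12.1% of the GST level in CPM but 4.97% per length. Summed levels were given no test. P-values measure the spread between mice of 1 experiment.

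All members were described. By rule, members at an unadjusted p of 0.05 (none here) or with the highest level per length of their subfamily were given in full. Other members given in full were chosen after their values were seen. Partner genes were named at an adjusted p of 0.05, or at an unadjusted p of 0.05 without overlap, and others after their values were seen. Members, lists and tests were chosen with earlier results of these data known.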

Additional observations from a re-analysis of the deposited data

Results flagged for a closer look

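In 8 of 112 groups of 4 libraries examined (members and summed levels), 1 library lay far from the other 3 by Dixon's criterion. Chance flags about 1 in 20 groups, which would be 5.6 here. Among the controls, control a was far from the others for Gstm3 (408 CPM against 198 to 219) and Gstt1 (199.7 CPM against 145 to 149), and control c for Ugt1a6b (115 CPM against 62.0 to 65.7). In the Nnmt KO group the far library was Nnmt KO a in all 5 cases, each time the lowest. These were Gstz1, and with it the summed Gstz level (396 CPM against 620 to 651), Ugt3a2 (102 CPM against 172 to 180), the summed Gstt level (176 CPM against 274 to 284) and the summed Ugt3 level (119 CPM against 202 to 215). Cases that rest on the same genes are not independent of each other.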

How the results depend on the processing

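Over 12 alternatives, 0 of 444 pairs of member and alternative reached an adjusted p of 0.05 (smallest 0.0712, Ugt2a3 without Nnmt KO a), and 16 reached an unadjusted p of 0.05. The count of GSTs at an unadjusted p of 0.05, which was 0, became 2 with library size alone (Gstm1 and Gstm3), 2 with DESeq2 (Gstm3 and Gsta1) and 0 to 2 when a library was left out. For UGTs it became 1 with library size alone (Ugt2a3) and 0 to 3 when a library was left out. Over all genes that count, 1925, was between 1259 (without control a) and 2194 (without control c). The count of all genes at an adjusted p of 0.05, which was 49, was 30 with DESeq2's size factors, 22 with library size alone, 508 with DESeq2's test, 8 without the filter, and 6 to 149 (without Nnmt KO a) with a library left out. Nnmt passed the test in DESeq2, at -1.28 (adjusted p = 0.00467). The causes of these shifts were not tested. No summed level moved by more than the spread between replicates.

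The sign changed in 52 pairs, from 19 members. With library size alone the log2 fold changes became 0.045 (Gstm5), 0.016 (Gstm7), 0.030 (Ugt1a5) and 0.049 (Ugt2b35). With a library left out, the ranges that crossed 0 were -0.054 to 0.32 (Gsta2), -0.16 to 0.073 (Gstk1), -0.21 to 0.061 (Gstm2), -0.063 to 0.027 (Gstm5), -0.039 to 0.12 (Gstm6), -0.11 to 0.089 (Gstm7), -0.13 to 0.094 (Gstt1), -0.30 to 0.063 (Gstt2), -0.11 to 0.28 (Gstt3), -0.058 to 0.75 (Ugt1a2), -0.11 to 0.086 (Ugt1a5), -0.11 to 0.25 (Ugt1a6a), -0.076 to 0.21 (Ugt2b1), -0.094 to 0.089 (Ugt2b34), -0.13 to 0.12 (Ugt2b35), -0.013 to 0.23 (Ugt2b36), -0.13 to 0.19 (Ugt2b37), -0.065 to 0.25 (Ugt3a1) and -0.16 to 0.11 (Ugt3a2). No paired analysis was possible because the columns of the count table carry no mouse numbers. At these depths 3 counts correspond to 0.0341 to 0.0400 CPM, below every member in every library.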
